A study of Homo sapiens with 24 samples.

Results

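The 10 genes described here regulate entry into S phase: the D-type cyclins CCND1 and CCND3, the E-type cyclins CCNE1 and CCNE2, the CDK inhibitors CDKN1B (p27) and CDKN1C (p57), the transcription factor MYC, and the MYC antagonists MXD1, MXI1 and MXD4. They were chosen by name as G1 regulators, many of whose proteins are short-lived substrates of the proteasome, and make up 10 of the 18915 genes with counts. The cells were HepG2, a human liver cancer line, and received fresh medium holding 1 of 6 additions for 10 h. These were DMSO as vehicle, ISRIB (50 nM), nelfinavir (20 µM), bortezomib (50 nM), and bortezomib at this dose plus either nelfinavir or ISRIB at theirs. There were 4 biological replicates per condition, and 3′ mRNA-Seq gave 24 libraries of 5154533 to 6943164 counts. Bortezomib inhibits the proteasome, nelfinavir is an antiviral drug that raises phosphorylated eIF2α, and ISRIB keeps translation initiation running when eIF2α is phosphorylated. All 6 conditions share 1 unmodified cell line, 1 time point and 1 dose per compound, and no protein was measured in these libraries.

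Cyclin D with CDK4 or CDK6, and then cyclin E with CDK2, phosphorylate the retinoblastoma protein and release E2F factors, which switch on genes of DNA replication. CDKN1B and CDKN1C bind cyclin-CDK complexes and block those with CDK2, and the SCF ubiquitin ligases that mark cyclin E, CDKN1B and MYC act through the proteasome. MYC and the MXD proteins (MXI1 is also known as MXD2) compete for the partner MAX, with MYC activating and the MXD proteins repressing genes with E-box sites. The measured quantity here is mRNA, so a member whose protein is stabilised when the proteasome is blocked may have an mRNA that is higher, lower or level.

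On GRCh37, the build of the deposited counts, the cyclin genes lie at chr11:69455924-69469242 (CCND1, + strand), chr6:41902672-42018095 (CCND3, - strand), chr19:30302898-30315219 (CCNE1, + strand) and chr8:95891998-95908906 (CCNE2, - strand). CDKN1B lies at chr12:12838432-12875303 (+ strand) and CDKN1C at chr11:2904443-2907005 (- strand). MYC lies at chr8:128747680-128755197 (+ strand), MXD1 at chr2:70124820-70170077 (+ strand), MXI1 at chr10:111967363-112047123 (+ strand) and MXD4 at chr4:2249159-2263836 (- strand). Their identifiers in the count file are ENSG00000110092 (CCND1), ENSG00000112576 (CCND3), ENSG00000105173 (CCNE1), ENSG00000175305 (CCNE2), ENSG00000111276 (CDKN1B), ENSG00000129757 (CDKN1C), ENSG00000136997 (MYC), ENSG00000059728 (MXD1), ENSG00000119950 (MXI1) and ENSG00000123933 (MXD4). These are whole genes with their introns, and the counts fall near the 3′ ends of their transcripts.

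Of the 10 members, 9 passed the filter on low counts and entered the test among 12685 genes. CDKN1C did not pass, with 9 counts in all 24 libraries, of which DMSO and bortezomib with nelfinavir had 0, and the 3 counts that a count of 0 allows are worth 0.349 to 0.741 CPM per library (counting error only). Levels are given as CPM, the counts relative to the total of the library after scaling with TMM factors, where 1 count was worth 0.116 to 0.247 CPM, and a gene is called when the adjusted p of edgeR's quasi-likelihood test is under 0.05. Mitochondrially encoded genes took 18.02% to 23.2% of the counts in libraries without bortezomib and 24.9% to 40.2% in those with it. TMM factors were 1.16 to 1.24 in the former and 0.786 to 0.869 in the latter. Scaling by library totals alone shifts the median of all genes in bortezomib against DMSO by -0.50 on the log2 scale, and all changes below are relative to the TMM scaling unless stated. In these bulk samples, fewer cells that express a gene and less of its RNA per cell cannot be told apart. All 10 hepatocyte or hepatoma markers examined were expressed, with summed levels of 6738 to 14600 CPM, lowest in bortezomib with nelfinavir (6738 to 8667 CPM). Of 4 endothelial and 4 fibroblast markers none passed the filter, and their summed levels reached at most 0.194 and 1.26 CPM. Of 4 blood markers 1 passed, CD68, and the list summed to 0.751 to 5.21 CPM. The part of these shifts in the results was not tested.

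The promoters of the 4 members with a higher mRNA level in bortezomib are shown because the transcription factors that respond to proteasome inhibition are known to act through short DNA motifs. Each line is the 250 bases before the start site, 5′ to 3′ on the strand of the gene, from RefSeq on GRCh38.p14. The windows are chr2:69914859-69915108 for MXD1, chr4:2262110-2262359 on the - strand for MXD4, chr19:29811741-29811990 for CCNE1 and chr12:12717118-12717367 for CDKN1B. Capitals mark the motif matches that a search of both strands found.
MXD1: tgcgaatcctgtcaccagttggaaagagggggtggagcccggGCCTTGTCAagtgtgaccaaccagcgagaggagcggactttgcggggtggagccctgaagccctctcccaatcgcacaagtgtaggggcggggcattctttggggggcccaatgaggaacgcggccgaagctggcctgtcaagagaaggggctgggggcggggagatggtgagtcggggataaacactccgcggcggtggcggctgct
MXD4: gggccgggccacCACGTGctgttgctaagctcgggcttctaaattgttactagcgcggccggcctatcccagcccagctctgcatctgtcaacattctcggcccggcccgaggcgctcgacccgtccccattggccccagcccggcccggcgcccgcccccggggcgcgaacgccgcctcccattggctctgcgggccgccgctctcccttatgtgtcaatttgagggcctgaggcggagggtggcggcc
CCNE1: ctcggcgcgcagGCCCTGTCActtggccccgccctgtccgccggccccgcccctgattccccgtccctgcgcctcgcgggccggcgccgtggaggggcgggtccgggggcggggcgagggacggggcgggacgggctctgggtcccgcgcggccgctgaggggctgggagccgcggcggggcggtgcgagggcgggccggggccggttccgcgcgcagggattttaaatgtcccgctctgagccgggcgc
CDKN1B: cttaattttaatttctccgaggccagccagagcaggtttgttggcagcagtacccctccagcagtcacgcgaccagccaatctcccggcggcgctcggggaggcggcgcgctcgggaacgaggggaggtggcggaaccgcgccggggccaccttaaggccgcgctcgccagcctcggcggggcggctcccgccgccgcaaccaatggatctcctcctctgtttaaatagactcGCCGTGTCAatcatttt
MXD1, CCNE1 and CDKN1B each held 1 match to TGACNNNGC, the core of the antioxidant response element bound by NFE2L1 and NFE2L2, read on the opposite strand. Its first base lay 208 bases before the start of MXD1, 238 before that of CCNE1 and 17 before that of CDKN1B. MXD4 held 1 E-box, CACGTG, the site of MYC and MXD dimers with MAX, 238 bases before its start. Over all 35116 promoter windows from 250 bases before to 50 after a start, 13.3% held TGACNNNGC and 7.26% held CACGTG, so such matches are common. No window of a member held the E2F sites TTTGGCGC (0.652% of all windows) and TTTCCCGC (1.63%), the C/EBP-ATF composite site TGATGNAA (3.62%), the CRE TGACGTCA (1.85%), the AP-1 site TGANTCA (7.71%) or the heat shock element (0.49%). Some of these motifs, such as TGANTCA and TGACNNNGC, can share bases. Windows were found for 6 members, 10 windows in all, and those of CCND3 and MXI1 held none of these motifs. CCND1, CCNE2, CDKN1C and MYC had no window and were not searched. The GC content of the printed sequences was 64.4% in MXD1, 70.4% in MXD4, 81.2% in CCNE1 and 64.4% in CDKN1B, against a median of 58% over all windows.

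Bortezomib alone lowered the D-type cyclins CCND1 and CCND3 and raised CCNE1, CDKN1B, MXD1 and MXD4. CCNE1 and CDKN1B were not called with scaling by library totals alone. Of the 9 members tested, 4 were called higher, where 27.6% of all genes were, and 2 lower, where 25.8% were. CCNE2, MYC and MXI1 were not called. The members' median log2 fold change was 0.43, against 0.00 over all genes tested. Over all genes 6773 of 12685 were called, so 6 of 9 is a share close to the background. All levels by library are drawn in the plot of the 10 genes by condition.

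**Figure D1:**
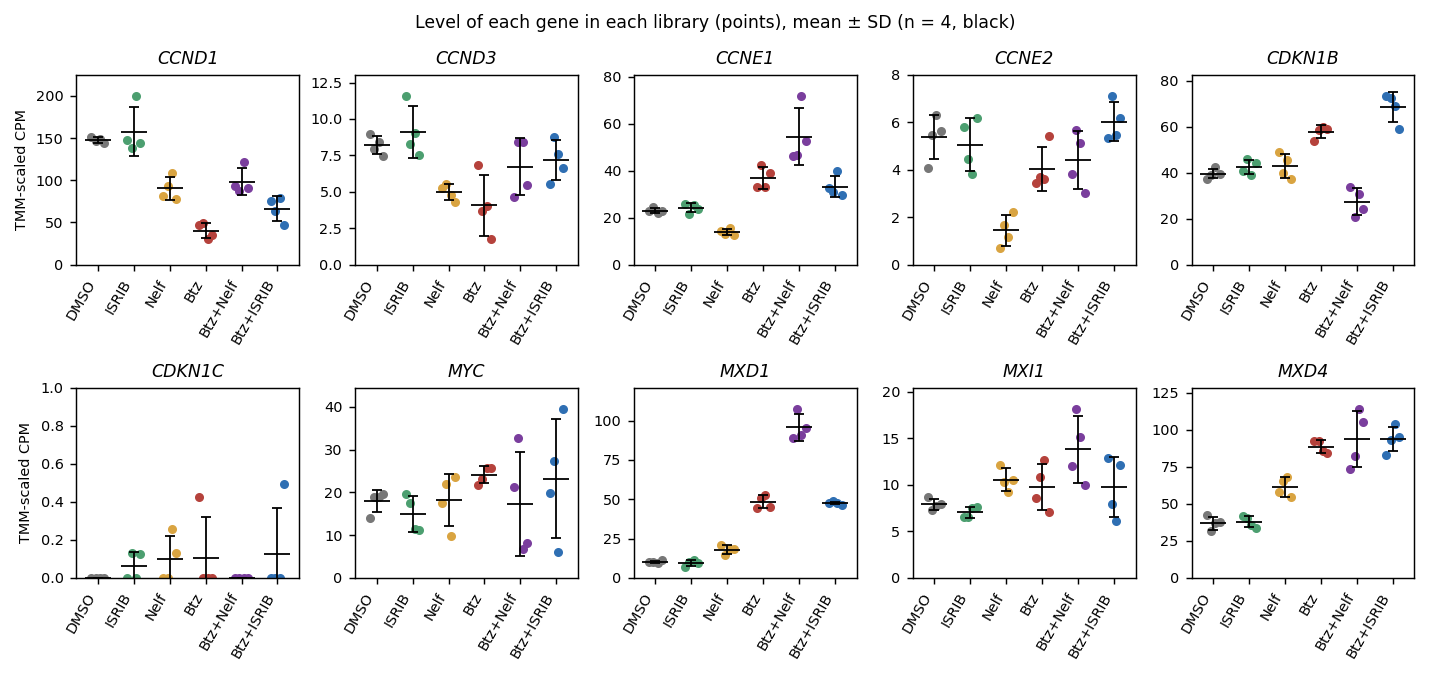
TMM-scaled CPM (y axis, starting at 0, its own scale in each panel) of the 10 genes in 24 libraries by condition (x axis, n = 4 each, Nelf is nelfinavir and Btz bortezomib). Points are libraries and black bars the mean ± SD, and CCND1 falls from 148 ± 3.45 CPM in DMSO to 40.4 ± 8.89 in bortezomib while MXD1 goes from 10.2 ± 0.668 to 48.4 ± 4.11.

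CCND1 encodes cyclin D1, the D-type cyclin most often linked to growth signals. Its level was 152, 146, 149 and 144 CPM in the 4 DMSO libraries and 46.4, 49.3, 30.6 and 35.2 CPM in the 4 bortezomib libraries. Nelfinavir alone gave 81.6, 93.6, 108 and 78.3 CPM. Bortezomib libraries all lay below those of nelfinavir, which all lay below those of DMSO. With bortezomib, CCND1 fell 3.65-fold (log2 fold change -1.87 ± 0.15 (SE), adjusted p = 2.55e-12). With nelfinavir it fell 1.63-fold (log2 fold change -0.71 ± 0.14 (SE), adjusted p = 0.000325). Adding nelfinavir to bortezomib gave 93.6, 86.7, 122 and 91.02 CPM, all above bortezomib alone, at 2.43 times its level (log2 fold change 1.28 ± 0.15 (SE), adjusted p = 8.95e-08). Adding ISRIB to bortezomib gave 75.5, 64.1, 79.4 and 47.2 CPM, where the lowest library overlapped with the highest of bortezomib alone, at 1.65 times its level (log2 fold change 0.72 ± 0.16 (SE), adjusted p = 0.00167). Replicate 4 was the low one, and both co-treatments stayed below every DMSO library. ISRIB alone gave 147, 138, 200.3 and 145 CPM, with 1 library above the rest, and did not pass the test (log2 fold change 0.09, 95% interval -0.19 to 0.38, adjusted p = 1).

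In GENCODE, which is not the annotation used for counting, the last kilobase of CCND1 overlaps the gene LTO1 (listed as ORAOV1) on the opposite strand. In a separate BLAST search, the end of a CCND1 transcript matched LTO1 over 258 bases at 99.6% identity. The strand setting of the counting is not given in the sources used here. ORAOV1 went from 14.2 CPM in DMSO to 30.7 CPM in bortezomib, a log2 fold change of 1.11 with adjusted p = 1.63e-06 in edgeR's test. Its direction was opposite to that of CCND1 in bortezomib and, at 0.48 with adjusted p = 0.0458, in nelfinavir.

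CCND3, cyclin D3, was a low gene at 8.95, 7.94, 8.397 and 7.48 CPM in DMSO. It was at 6.84, 3.69, 4.01 and 1.73 CPM in bortezomib, all below DMSO but with replicate 1 far above replicate 4. Nelfinavir gave 5.26, 5.55, 4.802 and 4.28 CPM. CCND3 fell in bortezomib (log2 fold change -1.01 ± 0.28 (SE), adjusted p = 0.00255). The fall with nelfinavir (log2 fold change -0.72 ± 0.25 (SE), adjusted p = 0.0441) was lost on leaving out any 1 of the 8 libraries, with adjusted p from 0.0564 to 0.125 and log2 fold changes of -0.77 to -0.65. CCND3 was at 4.65, 8.402, 8.45 and 5.44 CPM with nelfinavir added to bortezomib and at 5.57, 8.795, 7.58 and 6.67 CPM with ISRIB added, both overlapping bortezomib alone. Neither co-treatment passed the test (log2 fold change 0.72, 95% interval 0.13 to 1.31, adjusted p = 0.0599 for nelfinavir, and log2 fold change 0.82, 95% interval 0.22 to 1.41, adjusted p = 0.0624 for ISRIB). Without bortezomib replicate 1, CCND3 was called higher in both co-treatments, with log2 fold changes of 1.12 (adjusted p = 0.00575) and 1.17 (adjusted p = 0.00978). It was also called with nelfinavir added without replicate 1 (0.91, adjusted p = 0.0215) or replicate 4 (0.85, adjusted p = 0.0395) of the co-treatment. ISRIB alone gave 7.52 to 11.6 CPM and a log2 fold change of 0.15.

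CCNE1 encodes cyclin E1, the partner of CDK2 at the start of S phase. Its level was 22.7, 24.6, 21.8 and 22.8 CPM in DMSO, 33.2, 42.3, 33.2 and 38.9 in bortezomib and 14.5, 12.9, 15.7 and 12.7 in nelfinavir. Bortezomib libraries were all above and nelfinavir libraries all below those of DMSO. It rose 1.61-fold with bortezomib (log2 fold change 0.68 ± 0.14 (SE), adjusted p = 8.76e-05), but with scaling by totals alone the log2 fold change was 0.19 and not called (adjusted p = 0.259). With nelfinavir it fell 1.65-fold (log2 fold change -0.72 ± 0.14 (SE), adjusted p = 0.000298). In the presence of bortezomib, nelfinavir raised it further, to 46.3, 46.8, 71.9 and 52.7 CPM, all above bortezomib alone (log2 fold change 0.56 ± 0.14 (SE), adjusted p = 0.00187). This is the highest CCNE1 level among the 6 conditions, with replicate 3 above the other replicates. With ISRIB added to bortezomib it was at 32.7, 30.8, 39.8 and 29.6 CPM and did not pass the test (log2 fold change -0.15, 95% interval -0.43 to 0.13, adjusted p = 0.537). ISRIB alone gave 21.7 to 25.98 CPM, overlapping DMSO (log2 fold change 0.08).

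CCNE2, cyclin E2, was at 4.07, 5.47, 6.298 and 5.64 CPM in DMSO and at 0.717, 1.68, 1.17 and 2.21 CPM in nelfinavir. The nelfinavir libraries were the lowest of all 24, and the groups did not overlap. It fell 3.697-fold with nelfinavir (log2 fold change -1.89 ± 0.31 (SE), adjusted p = 2.75e-05), with values that rest on few counts. Bortezomib gave 3.42, 3.69, 3.59 and 5.403 CPM, overlapping DMSO, and did not pass the test (log2 fold change -0.41, 95% interval -1.01 to 0.18, adjusted p = 0.243), whereas with scaling by totals alone it was called lower (-0.91, adjusted p = 0.00763). With nelfinavir added to bortezomib it was at 3.81, 5.68, 5.11 and 3.003 CPM (log2 fold change 0.12, 95% interval -0.51 to 0.75, adjusted p = 0.807), and with ISRIB added at 5.34, 7.12, 5.47 and 6.17 CPM (log2 fold change 0.58, 95% interval -0.03 to 1.20, adjusted p = 0.218). ISRIB alone gave 3.81 to 6.16 CPM (log2 fold change -0.08). In GENCODE, its 3′ end overlaps INTS8 on the opposite strand, over at least 500 bases by BLAST. INTS8 had log2 fold changes of -0.19 (adjusted p = 0.698) with nelfinavir and -0.40 (adjusted p = 0.242) with bortezomib in edgeR's test.

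CDKN1B encodes p27, which blocks cyclin-CDK2 complexes and is removed by the SCF ligase with SKP2. Its level was 37.4, 39.2, 42.4 and 39.5 CPM in DMSO, 53.7, 58.4, 59.99 and 59.0 in bortezomib and 33.6, 20.9, 30.9 and 24.4 in bortezomib with nelfinavir. Bortezomib libraries all lay above DMSO, and those with nelfinavir added all lay below it, so the lowest condition was a co-treatment. CDKN1B rose 1.46-fold with bortezomib (log2 fold change 0.54 ± 0.12 (SE), adjusted p = 0.0002503), but with scaling by totals alone the log2 fold change was 0.05 and not called (adjusted p = 0.765). On adding nelfinavir to bortezomib it fell 2.102-fold (log2 fold change -1.07 ± 0.13 (SE), adjusted p = 6.50e-08). With ISRIB added to bortezomib it was at 73.5, 72.5, 69.1 and 59.0 CPM, with replicate 4 within the bortezomib range, and was not called (log2 fold change 0.25, 95% interval 0.00 to 0.49, adjusted p = 0.182). Nelfinavir alone gave 48.98, 39.8, 45.4 and 37.3 CPM and ISRIB alone 40.6, 45.9, 39.1 and 44.01 CPM, both overlapping DMSO. Neither was called (log2 fold change 0.11, 95% interval -0.13 to 0.36, adjusted p = 0.581 for nelfinavir, and 0.10, 95% interval -0.14 to 0.34, for ISRIB).

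MYC was not called in any of the 7 comparisons, and its replicate libraries differed widely. Its level was 14.1, 18.9, 19.03 and 19.6 CPM in DMSO and 21.8, 23.1, 25.8 and 25.7 in bortezomib, where the groups did not overlap. It was 17.6, 22.1, 9.86 and 23.5 CPM in nelfinavir, 21.4, 32.7, 6.68 and 8.26 in bortezomib with nelfinavir and 19.8, 27.4, 6.11 and 39.5 in bortezomib with ISRIB. Low and high libraries stood side by side within these conditions, with a lowest and a highest of 6.11 to 39.5 CPM in bortezomib with ISRIB. Replicate 3 was the lowest in nelfinavir and in both co-treatments. In DMSO and bortezomib the lowest was replicate 1, and in ISRIB alone replicate 4. ISRIB alone gave 19.7, 17.5, 11.4 and 11.2 CPM. The comparison with bortezomib did not pass the test (log2 fold change 0.43, 95% interval -0.29 to 1.15, adjusted p = 0.315), and its sign changed with scaling by totals alone (-0.07). In a model of the DMSO and bortezomib libraries only, it was 0.40 with adjusted p = 0.0209. Adding nelfinavir to bortezomib gave log2 fold change -0.50, 95% interval -1.25 to 0.24, adjusted p = 0.318, and without co-treated replicate 2 -0.97 with adjusted p = 0.0449. The remaining comparisons gave 0.03 (nelfinavir, 95% interval -0.68 to 0.74), -0.26 (ISRIB, -0.97 to 0.46) and -0.06 (ISRIB added to bortezomib, -0.80 to 0.67).

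The spread of MYC between libraries of 1 condition was 0.70 on the log2 CPM scale (SD pooled over the 6 conditions). Among the 2192 genes within 0.5 log2 CPM of its mean level, the median SD was 0.251, and 11 of them (0.502%) had a larger SD. The next member in this respect was CCND1, with an SD of 0.249 against a median of 0.146, exceeded by 87 of 1190 genes (7.31%). The other 7 tested members had SDs of 0.168 to 0.387, exceeded by 36.01% to 89.01% of the genes of like level. The gene CASC11, which shares 196 bases with MYC transcripts, had 23 counts in all 24 libraries.

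**Figure D2:**
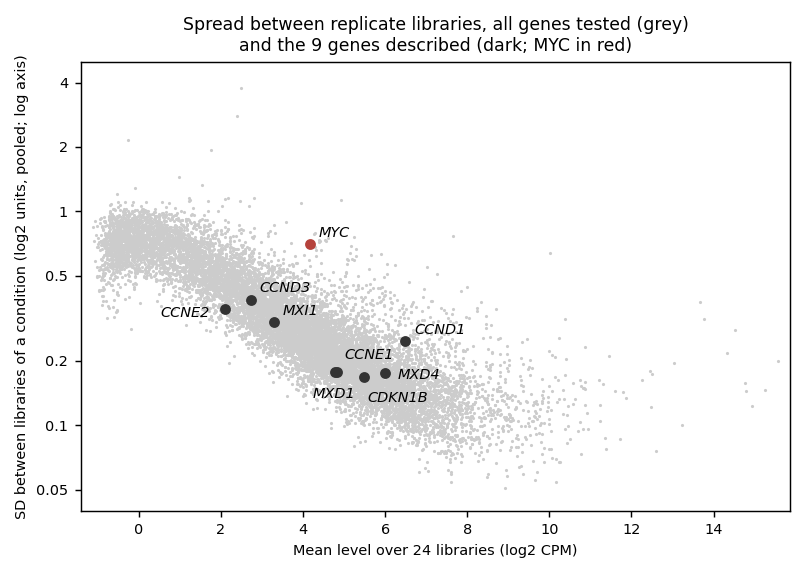
Each point is a gene, with its mean level over 24 libraries in log2 CPM (x axis) against the SD between libraries of a condition, pooled over 6 conditions, in log2 units (y axis, log scale). The 12685 genes tested are grey and the 9 described are dark, with MYC, at 0.70, in red above most genes of its level.

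MXD1, a MAX partner that represses MYC target genes and is known from differentiating cells, had the largest change among the members in bortezomib. Its level was 9.88, 10.02, 9.66 and 11.2 CPM in DMSO, 44.5, 51.0, 52.8 and 45.4 in bortezomib and 88.8, 107, 90.8 and 95.5 in bortezomib with nelfinavir. These 3 groups did not overlap. It rose 4.75-fold with bortezomib (log2 fold change 2.25 ± 0.14 (SE), adjusted p = 1.29e-15), and scaling by totals alone kept it called at 1.75 (adjusted p = 6.22e-13). Nelfinavir alone gave 21.1, 14.6, 18.3 and 18.2 CPM, all above DMSO (log2 fold change 0.83 ± 0.14 (SE), adjusted p = 2.89e-05). On adding nelfinavir to bortezomib it rose again, 1.97-fold (log2 fold change 0.98 ± 0.12 (SE), adjusted p = 1.54e-07). With ISRIB added to bortezomib its level was 47.4, 48.6, 47.4 and 46.7 CPM, and the test was not passed (log2 fold change -0.03, 95% interval -0.28 to 0.22, adjusted p = 0.921). ISRIB alone gave 6.69, 10.4, 11.3 and 9.37 CPM (log2 fold change -0.12, 95% interval -0.41 to 0.18).

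MXD4, a further MXD repressor, was at 42.2, 31.5, 36.95 and 37.5 CPM in DMSO, 92.2, 92.7, 85.8 and 84.1 in bortezomib and 57.7, 65.3, 68.4 and 54.3 in nelfinavir. Both drugs gave values above every DMSO library, and bortezomib values lay above those of nelfinavir. It rose 2.39-fold with bortezomib (log2 fold change 1.26 ± 0.12 (SE), adjusted p = 1.52e-10) and 1.66-fold with nelfinavir (log2 fold change 0.73 ± 0.12 (SE), adjusted p = 2.62e-05). Bortezomib with nelfinavir gave 73.3, 82.4, 114 and 106 CPM and bortezomib with ISRIB 83.3, 92.98, 104 and 95.04 CPM, both overlapping bortezomib alone. Neither passed the test against bortezomib (log2 fold change 0.08, 95% interval -0.16 to 0.32, adjusted p = 0.6404, and 0.08, 95% interval -0.16 to 0.32, adjusted p = 0.723). ISRIB alone gave 33.7 to 41.6 CPM, overlapping DMSO (log2 fold change 0.03).

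MXI1 was not called in any comparison. Its level was 8.72, 7.29, 7.698 and 7.97 CPM in DMSO, 12.2, 10.3, 9.21 and 10.5 in nelfinavir and 8.56, 10.9, 12.7 and 7.13 in bortezomib. Nelfinavir libraries all lay above DMSO, but the test was not passed (log2 fold change 0.41, 95% interval -0.02 to 0.85, adjusted p = 0.197), while a model of these 2 groups only gave 0.41 with adjusted p = 0.045. With bortezomib the log2 fold change was 0.31 (95% interval -0.15 to 0.77, adjusted p = 0.254), and its sign changed with scaling by totals alone (-0.19). Bortezomib with nelfinavir gave 12.1, 18.2, 15.1 and 9.95 CPM (log2 fold change 0.49, 95% interval 0.03 to 0.94, adjusted p = 0.1002). That comparison was called without bortezomib replicate 3 (0.67, adjusted p = 0.0386) or co-treated replicate 4 (0.65, adjusted p = 0.0344). Bortezomib with ISRIB gave 12.9, 7.96, 6.11 and 12.1 CPM (log2 fold change -0.02) and ISRIB alone 6.56 to 7.64 CPM (-0.17).

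Placed in order, the conditions differed by member. CCND1 was highest in ISRIB and DMSO, which overlapped, and lowest in bortezomib. CCNE1 was highest in bortezomib with nelfinavir, followed by bortezomib and bortezomib with ISRIB, which overlapped, then ISRIB and DMSO, which overlapped, then nelfinavir. MXD1 had the same first 3 conditions, then nelfinavir, with DMSO and ISRIB last and overlapping. For CDKN1B, bortezomib with ISRIB and bortezomib overlapped at the top, nelfinavir, ISRIB and DMSO overlapped below them, and bortezomib with nelfinavir came last. In MXD4 the 3 conditions with bortezomib overlapped at the top, above nelfinavir and then ISRIB and DMSO. CCNE2 had nelfinavir last and the other 5 conditions above it. For CCND3, MYC and MXI1, every pair of neighbouring conditions overlapped.

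Against DMSO, nelfinavir called 2 of the 9 members higher, where 10.4% of all genes were, and 4 lower, where 8.84% were. The 2 higher were the repressors MXD1 and MXD4 and the 4 lower were the 4 cyclins among the members. CCND2, a D-type cyclin outside the members, was not called with nelfinavir (log2 fold change 0.15, adjusted p = 0.568 in edgeR's test). The members' median was 0.03 against 0.01 over all genes. ISRIB alone called 0% of the 12685 genes in edgeR's test, members included. At an unadjusted p under 0.05 it had 703 genes and 0 members, and DESeq2 called 21 genes. The members' intervals with ISRIB alone reached at most 0.65 above and -0.97 below DMSO on the log2 scale. On adding nelfinavir to bortezomib, 3 members were called higher (background 15.6%) and 1 lower (background 13.4%), with a median of 0.49 against -0.02 over all genes. On adding ISRIB to bortezomib, CCND1 was called higher (background 6.91%) and 0 members lower (background 5.34%), with a median of 0.08 against 0.01. These comparisons share DMSO or bortezomib libraries, so they are not independent of each other.

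**Figure D3:**
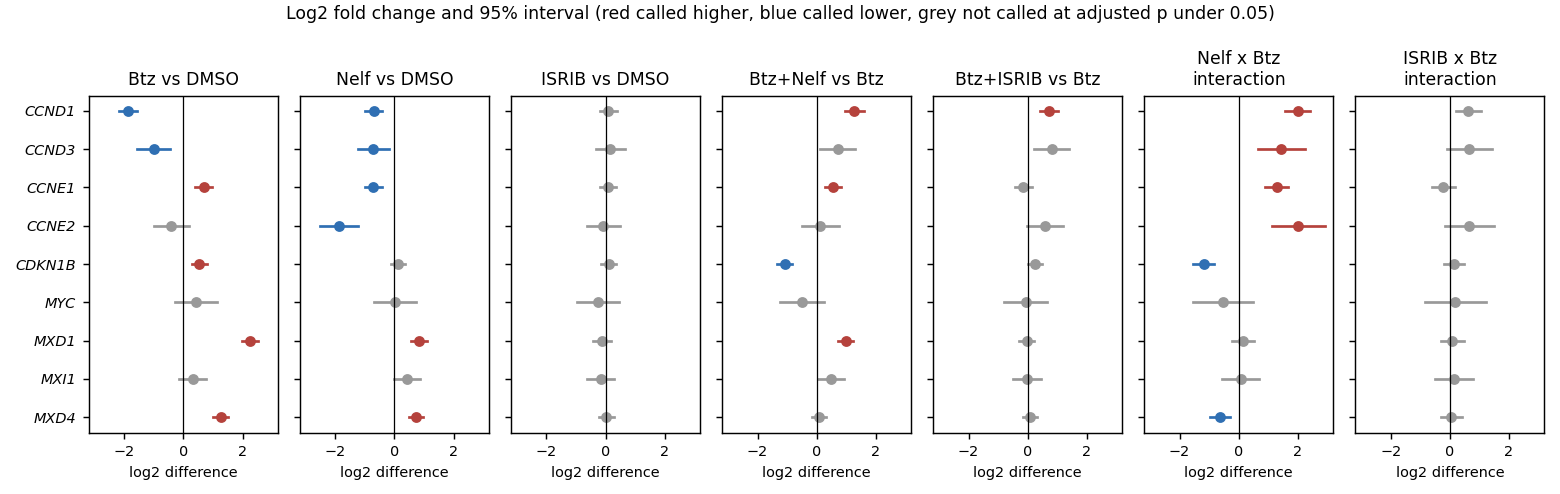
Log2 fold change (point) and its 95% interval (line) of the 9 members tested (rows) in 7 comparisons (panels, x axis in log2 units). Red marks a call higher, blue a call lower and grey no call, and the 4 cyclins are blue for nelfinavir against DMSO and red for the interaction of nelfinavir with bortezomib, where CCNE2 reaches 2.01. The interaction subtracts the change with nelfinavir against DMSO, so these panels are not independent of each other.

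The interaction asks whether adding a drug has another effect in the presence of bortezomib than in its absence, and is the first change minus the second. The second change is the drug alone against DMSO, so a fall there raises the interaction through the same libraries. For nelfinavir it was called higher for 4 of 9 members, where 9.74% of all genes were, and lower for 2, where 10.0% were. The 4 higher were the 4 cyclins among the members. CCND1 changed by -0.71 with nelfinavir in vehicle and by 1.28 in bortezomib, an interaction of 1.99 ± 0.21 (SE, adjusted p = 1.05e-08). CCNE1 changed by -0.72 and 0.56, an interaction of 1.28 ± 0.20 (adjusted p = 1.07e-05). CCNE2 changed by -1.89 and 0.12, with 2.01 ± 0.44 (adjusted p = 0.00122), and CCND3 by -0.72 and 0.72, with 1.44 ± 0.39 (adjusted p = 0.00726). In all 4, nelfinavir gave lower levels than vehicle on its own, and in bortezomib CCND1 and CCNE1 were called higher while CCND3 and CCNE2 were not called. CDKN1B had the opposite sign, with 0.11 in vehicle and -1.07 in bortezomib, an interaction of -1.19 ± 0.17 (adjusted p = 4.66e-06). MXD4 changed by 0.73 in vehicle and by 0.08 in bortezomib, an interaction of -0.65 ± 0.17 (adjusted p = 0.005904). MXD1 rose by 0.83 in vehicle and by 0.98 in bortezomib, and the interaction was not called (0.15, 95% interval -0.22 to 0.53). MYC (-0.53, 95% interval -1.56 to 0.49) and MXI1 (0.07, -0.56 to 0.70) were not called either. The members' median interaction was 0.15, against -0.02 over all genes.

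The interaction of ISRIB with bortezomib was called for 0 of the 9 members, where 2.93% of all genes were called higher and 1.89% lower, and the members' median was 0.15 against 0.01. At an unadjusted p under 0.05 only CCND1 passed, with 0.63 ± 0.21 (SE, 95% interval 0.20 to 1.05, edgeR adjusted p = 0.0771). It was called without ISRIB replicate 3 (0.76, adjusted p = 0.0259), bortezomib replicate 2 (0.74, adjusted p = 0.046) or replicate 4 with both drugs (0.75, adjusted p = 0.0258). The other members had values of -0.23 (CCNE1) to 0.66 (CCND3 and CCNE2), and the intervals reached 1.49 for CCNE2.

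Kinases, inhibitors, E2F factors, ligases, MAX partners and MYC target genes outside the members were taken from fixed lists, chosen with earlier results of these data known. Their counts are to be read against all 12685 genes tested, of which 27.6% were called higher and 25.8% lower with bortezomib (median 0.00), or 1490 higher and 6266 lower with scaling by totals alone (median -0.50). With nelfinavir 10.4% of all genes were higher and 8.84% lower, with nelfinavir added to bortezomib 15.6% and 13.4%, and with ISRIB added 6.91% and 5.34%. The interaction was higher for 9.74% and lower for 10.0% of all genes with nelfinavir, and for 2.93% and 1.89% with ISRIB.

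Among 11 tested cyclins and CDKs of G1 and S phase, 3 were called higher and 5 lower with bortezomib (median -0.01), or 3 and 6 with scaling by totals alone (median -0.51), beside 27.6% higher and 25.8% lower, or 1490 and 6266 of 12685, over all genes. CDK4, the partner of D cyclins, was at 189 CPM in DMSO and 417 in bortezomib (log2 fold change 1.14, adjusted p = 2.79e-10), and CDK7, the CDK-activating kinase, had 1.02 (adjusted p = 0.000131). CDK6, the other partner of D cyclins, went from 271 to 107 CPM (-1.35, adjusted p = 7.41e-13) and CCND2, cyclin D2, had -1.31 (adjusted p = 3.84e-08). With nelfinavir 1 was higher and 5 lower (median -0.35), among them CDC25A, the phosphatase that activates CDK2 (-1.09, adjusted p = 1.05e-08), CDK2 (-0.80, adjusted p = 3.61e-06) and, higher, CCNC (0.24, adjusted p = 0.0481). The interaction of nelfinavir was called higher for 5, led by CDC25A (1.79), and lower for CDK4 (-0.90), with a median of 0.41. Nelfinavir on top of bortezomib gave 4 higher, led by CCND2 (1.02), and 2 lower, led by CDK4 (-0.87). Adding ISRIB gave 1 higher, CCND2 (0.54), and 2 lower, led by CCNA2, cyclin A2 (-0.56), and CDK4 was lower in the interaction of ISRIB (-0.62).

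Of 6 other genes named as CDK inhibitors, 2 rose and 2 fell with bortezomib (median 0.01), or 2 and 3 with totals alone (median -0.49). This is near the 27.6% and 25.8%, or 1490 and 6266 of 12685, of all genes. CDKN1A (p21), a p53 target, went from 52.8 to 101 CPM (0.94, adjusted p = 3.12e-08), while CDKN2C (p18) went from 15.7 to 4.18 CPM (-1.91, adjusted p = 3.39e-07) and CDKN3 had -0.94 (adjusted p = 1.32e-07). CDKN2B (p15) was called higher at very low levels, 0.125 CPM in DMSO, 0.849 in nelfinavir and 1.61 in bortezomib. With nelfinavir CDKN2C (-0.77) and CDKN3 (-0.34) were the 2 called lower, and the list's median was -0.05. CDKN3 was the single call in each co-treatment against bortezomib, at -0.75 with nelfinavir and -0.41 with ISRIB, and neither interaction was called for any of the 6.

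Of 13 RB and E2F genes, 3 rose and 2 fell with bortezomib (median -0.05), and 1 and 9 with totals alone (median -0.55), where the median of all genes was -0.50 and 6266 of 12685 were lower. Over all genes 27.6% rose and 25.8% fell under the TMM scaling. The repressive E2F6 (1.14, adjusted p = 9.83e-10) and the dimer partner TFDP2 (0.76, or 0.26 and not called with totals alone) rose, and E2F8 (-2.06, adjusted p = 0.000144) and RBL2 (-0.49, adjusted p = 0.0412) fell. With nelfinavir 1 rose, E2F6 (0.34), and 6 fell (median -0.38), beside 10.4% and 8.84% of all genes, led by E2F7 (-2.34, adjusted p = 2.75e-05), from 6.34 to 1.24 CPM, and E2F8 (-1.82). The nelfinavir interaction was called higher for 6 and lower for 0, beside 9.74% and 10.0% of all genes, with a median of 0.56, led by E2F7 (2.32, adjusted p = 0.00279). Adding nelfinavir to bortezomib called 2 higher, led by E2F1 (0.41), and RBL1 lower (-0.42). Adding ISRIB called 3 lower, led by E2F5 (-1.23), and E2F6 was lower in the interaction of ISRIB (-0.59).

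Of 13 tested genes of ubiquitin ligases and their partners, among them the deubiquitinase USP28, 3 rose and 3 fell with bortezomib (median 0.18), and 2 and 7 with totals alone (median -0.32). Both are near the shares of all genes, 27.6% and 25.8%, or 1490 and 6266 of 12685 with totals alone. SKP2, which marks CDKN1B for the proteasome, went from 84.4 CPM in DMSO to 11.97 in bortezomib and 32.7 in nelfinavir (-2.82, adjusted p = 3.61e-17, and -1.37, adjusted p = 4.01e-10). FBXO4, an F-box protein described for cyclin D1, had -1.51 with bortezomib, while RNF123, a subunit of a ligase for CDKN1B, had 1.16 and HUWE1 0.99. With nelfinavir FBXO31 (0.67) and RNF123 (0.65) were the 2 higher and SKP2 and CUL3 (-0.44) the 2 lower (median -0.03). Adding nelfinavir to bortezomib called 3 higher, led by FBXW7, the F-box protein for cyclin E and MYC (0.82), and 1 lower, FBXO31 (-0.56). Adding ISRIB called SKP2 alone (0.53, adjusted p = 0.0289). The nelfinavir interaction was higher for 3, led by SKP2 (1.97), and lower for 2, led by FBXO31 (-1.23).

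Of 7 tested genes of the MAX network outside the members, 3 rose and 2 fell with bortezomib (median -0.06), and 0 and 4 with totals alone (median -0.56), beside 27.6% and 25.8%, or 1490 and 6266 of 12685, of all genes. MLXIP (0.76) and the MAX-binding repressor MNT (0.61) rose, though neither was called with totals alone (0.27 and 0.11), and the repressor MXD3 (-1.07, adjusted p = 0.0288) and MLX (-0.70) fell. With nelfinavir 3 rose and 0 fell (median 0.30; 10.4% and 8.84% of all genes), led by MLXIPL (0.65) and MAX, the shared partner (0.56, adjusted p = 0.000507). Against bortezomib, adding nelfinavir gave 3 higher, led by MNT (0.43), and adding ISRIB gave 1, MLX (0.84). The nelfinavir interaction was called for MGA (0.53).

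Of 27 tested MYC target genes, 12 were higher and 7 lower with bortezomib (median 0.18), and 2 and 15 with totals alone (median -0.31), beside 27.6% and 25.8%, or 1490 and 6266 of 12685, of all genes. RRP12, a ribosome assembly factor, went from 16.9 to 55.5 CPM (1.71, adjusted p = 8.41e-14) and NOP58 had 0.78, while LDHA, lactate dehydrogenase A, had -0.82 and FBL, fibrillarin, -0.72. With nelfinavir 0 were higher and 8 lower (median -0.21; 10.4% and 8.84% of all genes), led by GNL3 (-0.86) and NOP56 (-0.74). In bortezomib, adding nelfinavir gave 4 higher, led by PPAT (0.49), and 6 lower, led by ODC1, ornithine decarboxylase (-1.01). Adding ISRIB gave 1 higher, LDHA (0.42), and 4 lower, led by NOP58 (-0.62). The nelfinavir interaction was higher for 6, led by GNL3 (1.16), and lower for 2, led by ODC1 (-0.80), and the interaction of ISRIB was lower for 3, led by NOP58 (-0.57). ISRIB alone called 0 genes of any of the 6 lists in edgeR's test, as of all genes.

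**Figure D4:**
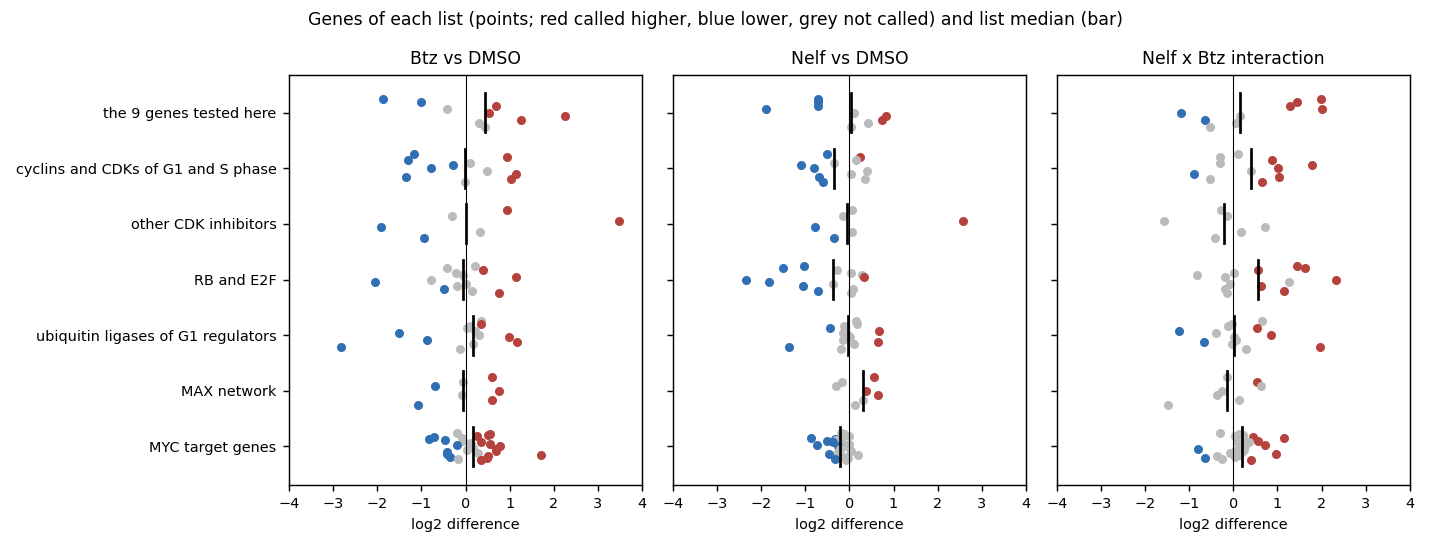
Log2 fold changes (x axis) of the 9 members tested and of the genes of 6 lists (rows) for bortezomib and nelfinavir against DMSO and for their interaction (panels). Points are genes, red called higher, blue called lower and grey not called, black bars are medians, and the RB and E2F list has its median at -0.38 with nelfinavir and at 0.56 in the interaction. The interaction subtracts the change with nelfinavir, so the panels share libraries.

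For each member tested, the genes with the most similar profile were found as the smallest root mean square (RMS) difference of the 5 log2 fold changes against DMSO, over 24 libraries and about 6440 genes above 4 log2 CPM. CCND1 was nearest to MEIS2 (RMS 0.272) and AXIN2 (0.293), CCND3 to FAM46A (0.148) and CDS1 (0.167), CCNE1 to WEE1 (0.161) and TOP1 (0.202), and CCNE2 to PSMC3IP (0.242) and XRCC2 (0.293). CDKN1B was nearest to C19orf77 (0.1304) and HGSNAT (0.157), and MYC to NRCAM (0.0894) and TOR1A (0.103). MXD1 was nearest to DEDD2 (0.207) and GCLM (0.209), MXI1 to NSUN4 (0.0524) and CACFD1 (0.0665), and MXD4 to RNF123 (0.109), one of the ligase genes above, and ZFYVE27 (0.124). All profiles share the DMSO libraries, and small values for MYC and MXI1 go with small fold changes.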

How the data were processed

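RNA from HepG2 cells (4 biological replicates in each of 6 conditions) was sequenced as 3′ mRNA-Seq libraries (QuantSeq FWD). The deposited values are whole read counts per gene, for which the authors trimmed the reads with cutadapt 2.8, aligned them to hg19 with STAR and counted protein-coding, lincRNA and antisense genes of an Ensembl GRCh37 annotation. Whether counting used the strand, with which program, and whether molecular identifiers were collapsed is not stated in what was read here. The bound given for CDKN1C reflects counting error alone.

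The low-count filter was filterByExpr with a minimum count of 5 and 25 counts in total. TMM factors set the scale, and the quasi-likelihood test of edgeR 4.0.16 (R 4.3.3) was run with 1 coefficient per condition over all 24 libraries and Benjamini-Hochberg adjustment over the 12685 genes tested. The threshold for a call was an adjusted p of 0.05, and all p-values in the text are from this test unless another model is named. Each SE is the absolute log2 fold change divided by the square root of the F statistic of edgeR's test. Intervals on log2 fold changes are at 95% and use this SE with a t quantile. Both are approximate and include the spread between replicates. Log2 CPM used a prior count of 2. The members and lists were chosen with earlier results of these data known. From each list the 2 called genes per direction with the largest change are named for bortezomib and nelfinavir against DMSO, and 1 per direction elsewhere. Sequences are from RefSeq (GRCh38.p14), gene positions from GENCODE (GRCh37), and shared 3′ ends were found with BLAST 2.17.0.

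The alternatives were other scalings (RLE and upper-quartile factors, totals alone, removal of mitochondrial and top 20 genes), DESeq2 1.42.0, other filters, models of 2 or 4 groups, the replicate number as a block, thinned counts and each library left out. The replicates of a condition differed by more than sampling noise.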

Additional observations from a re-analysis of the deposited data

Results flagged for a closer look

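In 3 of the 54 combinations of a member and a condition, 1 library stood apart from the other 3 by Dixon's criterion, and chance alone gives about 1 in 20. These were CCND1 in ISRIB replicate 3 at 200.3 CPM, against 138 to 147 CPM in the other replicates, CCNE2 in bortezomib replicate 4 at 5.403 CPM, against 3.42 to 3.69 CPM, and MYC in DMSO replicate 1 at 14.06 CPM, against 18.9 to 19.6 CPM.

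The effect of nelfinavir differed between vehicle and bortezomib, by the interaction term in edgeR's test, for 6 of the 9 members tested, 4 higher and 2 lower, beside 9.74% and 10.0% of all genes. The difference was 1.99 for CCND1, 1.44 for CCND3, 1.28 for CCNE1 and 2.01 for CCNE2, and -1.19 for CDKN1B and -0.65 for MXD4, all on the log2 scale.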

How the results depend on the processing

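Of 630 member values under 10 other settings, 614 kept their direction and their side of the threshold, as did 605 of 648 with 1 library left out. With ISRIB added to bortezomib, 2 members were called by DESeq2 and 2 with the replicate block, against 1, with CCND3 as the addition (0.81 and 0.84, adjusted p = 0.0356 and 0.0495). The interaction of ISRIB called 1 member, CCND1, without a filter and 1 with the replicate block, against 0 (0.62 in both, adjusted p = 0.00653 and 0.0402). CCND3 was also called on adding nelfinavir to bortezomib by DESeq2 (0.73, adjusted p = 0.0349) and with the block (0.75, adjusted p = 0.047), and its nelfinavir call was lost without a filter (-0.73, adjusted p = 0.054). The cause was not tested. The replicate block changed no other call of a member. The labels do not say that a number marks a shared culture or day, so the libraries were not treated as paired. Of pairs with the same number, 21 of 60 had r above 0.1, against 38 of 180 with other numbers, which does not settle the question. In ISRIB alone, unlike the other conditions, replicate numbers do not follow the order of the sample numbers in the titles. The pairing check and the replicate block may therefore misalign that condition. Among the 4 replicate numbers, 10 of 24 libraries correlated best with their own. Some such matches come by chance, so partial pairing is possible but not shown. With 1 library left out, the members called were 6 for bortezomib, 5 for nelfinavir, 0 for ISRIB, 4 to 6 for nelfinavir added to bortezomib, 1 to 2 for ISRIB added to bortezomib, 6 for the interaction of nelfinavir and 0 to 1 for that of ISRIB. With totals alone, bortezomib called 5 members (2 higher, 3 lower), and 19.2% of all called genes were higher, against 51.6%. Over all genes, a model of only the groups compared called 3873 for nelfinavir (main 2441), 80 for ISRIB (main 0), 2246 for nelfinavir added to bortezomib (main 3669) and 867 for ISRIB added (main 1553). For ISRIB alone DESeq2 called 21 and no filter 39, and for the interaction of ISRIB DESeq2 called 923 (main 612). CDKN1C and the other genes below the filter were too low to compare at this depth.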
